A study of Homo sapiens with 4 samples.

Results

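The basement membrane is the thin sheet of extracellular matrix that lies under epithelia and around blood vessels, muscle and nerve, and in the brain it lines the vessel wall along which glioma cells migrate. Laminins, trimers of an alpha, a beta and a gamma chain, and collagen IV, a trimer of alpha chains, form its networks, nidogens bridge the networks, and the heparan sulfate proteoglycans perlecan and agrin are anchored in them. Cells bind the sheet through integrins and dystroglycan. The genes described here are 10 of these components, chosen by name, out of 58735 genes in the deposited files: the collagen IV chains COL4A1 and COL4A2, the laminin chains LAMA4, LAMA5, LAMB1 and LAMC1, the nidogens NID1 and NID2, and the proteoglycans HSPG2 (perlecan) and AGRN (agrin). The choice was made with earlier results of these data known. All 10 were found, and 8 of them, all but NID2 and HSPG2, were among the 12949 genes with a mean of at least 1 FPKM over the libraries, the filter used for counts over all genes. FPKM is the number of sequenced fragments on a gene, scaled by the length of the gene and by a library size. The library size in the deposited FPKM differed somewhat from the total of fragments on genes.

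U251 and U87 are established human glioblastoma (GBM) cell lines, grown in serum-containing medium, and brusatol (Bru) is a plant compound from Brucea seeds. RNA was sequenced from U251 Control, from U251 after 48 h of Bru, from U87 Control and from U87 after 48 h of Bru. Bru was given at its IC50, and the concentration in the sequenced cells is not stated. In its viability assay over time the study used a higher concentration for U251 than for U87. The dose of the sequenced cells may therefore differ between the lines. Control cells in other assays of the study received DMSO, the solvent of Bru, and the methods do not say what those sequenced received. Each of the 4 conditions had 1 library, so no difference has a replicate check and no p-value is given. Values in brackets are 95% exact (Clopper-Pearson) intervals of the fragment numbers, called reads here. These intervals cover counting error only, and say nothing of how far another culture would have differed.

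The FPKM gave back between 17083896 and 21453561 whole reads on genes per library. The library size inside the FPKM was 20974002 against 21453561 such reads in U251 Control and 18533374 against 17847910 in U251 Bru. In U87 it was 18070193 against 18260975 in Control and 17406238 against 17083896 in Bru. Ratios of Bru to Control from FPKM are thus somewhat lower than ratios scaled by reads on genes. The 10 genes together held 69036 reads in U251 without Bru and 30630 reads with it, and 19871 reads in U87 without Bru and 16343 reads with it, or 0.322%, 0.172%, 0.109% and 0.0957% of all reads on genes. As a check of the labelled cell type, VIM, NES, SOX2, CD44, EGFR and GFAP of the 8 glioma markers had at least 1 FPKM in U251 Control. In U87 Control only VIM, NES, CD44 and EGFR did, S100B and SOX2 were at 0 reads and GFAP was at 0.215 FPKM. Basement membrane is made in large amounts by endothelial cells and pericytes, whose markers were therefore read as well. The 6 endothelial markers summed to between 0.903 and 4.46 FPKM, nearly all of it KDR in U251, and PECAM1 and VWF stayed under 0.5 FPKM in all 4 libraries. The 6 pericyte and fibroblast markers summed to 3.33 FPKM in U251 without Bru and 3.32 FPKM with it, and 43.2 FPKM in U87 without Bru and 31.1 FPKM with it, mainly through CSPG4 in U87, and DCN was at 0 reads throughout. Of the 4 immune cell markers none reached 1 FPKM, and of the 4 epithelial markers CDH1 was at 0 reads throughout while KRT18 had 9.67 FPKM in U251 Control and 14.3 FPKM in U251 Bru. The part of these markers in the results was not tested. In bulk RNA, a change in the share of cells that express a gene and a change in the amount of its RNA per cell cannot be told apart.

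In U251, the basement membrane genes were mostly lower in Bru than in Control. Log2 ratios of Bru over Control were taken on FPKM + 0.1, a scale that shrinks differences at low FPKM. The ratio was below -1, a 2-fold difference, for NID1, COL4A1, COL4A2 and LAMA5 and above 1 for none, so 4 of the 10 genes were past 2-fold, against 5.44% of all 12949 genes that were past 2-fold in the lower direction and 3.36% in the higher direction. The values nearest to the cutoff were -1.17 for LAMA5 on its far side and -0.93 for AGRN on its near side. The median over the 8 genes that passed the filter was -1.05 and over all 10 genes -0.86, while the median over all 12949 genes was -0.03. These genes have long transcripts, and among the 4591 genes at least as long as NID1, the shortest of them, the median was -0.09, 3.79% were past 2-fold lower and 0.915% past it higher. In U87 the ratio of each gene except NID2 lay nearer to 0 than in U251. For HSPG2 the ratios were close in size (0.34 in U251 and -0.31 in U87), and that of NID1 in U87 rested on 6 and 13 reads. None of the 10 was past 2-fold there, where 1.41% of all genes (0.327% of the long ones) were past 2-fold lower and 1.92% (0.109%) past it higher, and the median was -0.16 over the 8 genes and -0.19 over all 10, beside -0.04 over all genes. NID1 and COL4A1 passed the filter only through U251 and had under 1 FPKM in both U87 libraries. Over the 8 genes with a mean of at least 1 FPKM in U87 itself (NID2 and HSPG2 in place of those), 0 were past 2-fold in U87 and the median was -0.23, beside -0.04 over the 12591 genes with that mean in U87. The counting interval of the ratio lay below 0 for 8 genes in U251, beside 35.9% of all genes and 45.6% of the long ones, and above 0 for 1, beside 30.9% and 28.8%. In U87 it lay below 0 for 7 genes, beside 28.0% and 33.7%, and above 0 for none, beside 15.7% and 14.6%.

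**Figure D1:**
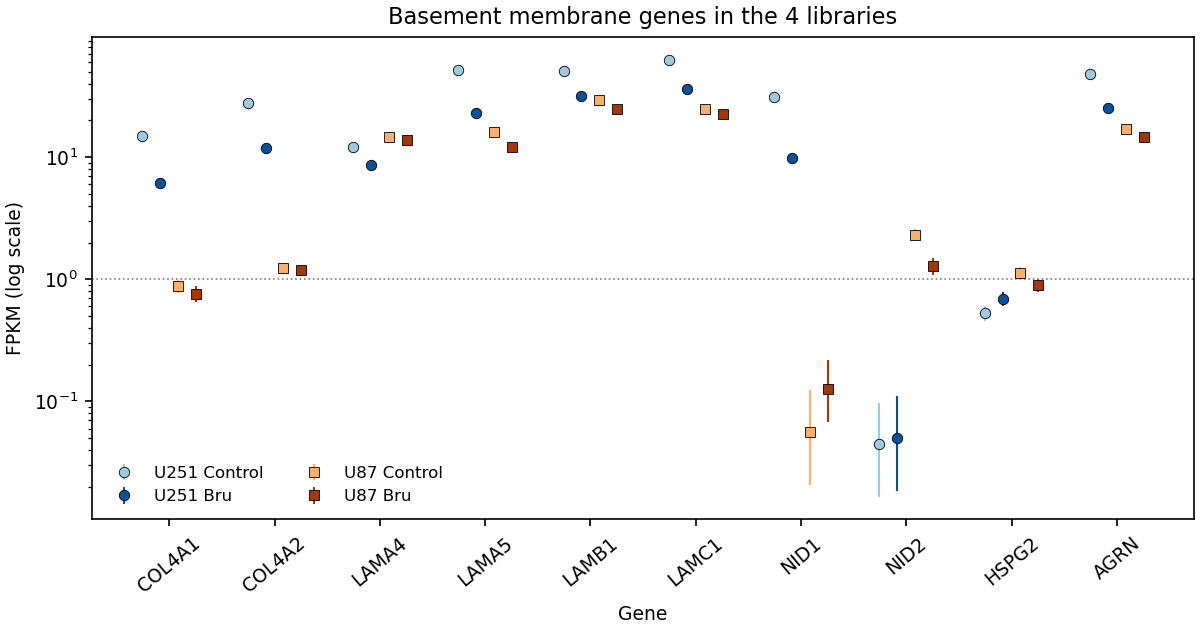
FPKM on a log axis of the 10 basement membrane genes (x axis) in U251 Control, U251 Bru, U87 Control and U87 Bru, with 95% exact counting intervals as bars, 1 library per point and the dotted line at 1 FPKM. COL4A1, COL4A2 and NID1 sit far higher in both U251 libraries than in both U87 libraries, NID2 sits higher in U87, and LAMA4 sits between 8.71 and 14.6 FPKM in all 4 libraries.

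Both collagen IV chains were far higher in U251 than in U87, and in U251 they were lower with Bru. COL4A1 and COL4A2 encode the chains of the most common collagen IV trimer, which holds both, and they lie head to head on chromosome 13 of GRCh38. COL4A1 (ENSG00000187498, minus strand, from 110148963 to 110307233) had 14.9 FPKM (4612 reads) in U251 without Bru and 6.09 FPKM (1664 reads) with it, and 0.875 FPKM (233 reads) in U87 without Bru and 0.760 FPKM (195 reads) with it. COL4A2 (ENSG00000134871, plus strand, from 110305812 to 110513209) had 28.0 FPKM (11345 reads) in U251 without Bru and 11.9 FPKM (4254 reads) with it, and 1.24 FPKM (434 reads) in U87 without Bru and 1.19 FPKM (401 reads) with it. Both genes were thus high in U251, lower there with Bru, and near 1 FPKM in both U87 libraries. Without a pseudocount COL4A1 was 2.45-fold lower in U251 Bru than in U251 Control (2.32 to 2.59) and COL4A2 was 2.36-fold lower (2.27 to 2.44). In U87 the log2 ratio of COL4A1 was -0.20 (-0.48 to 0.08) and that of COL4A2 was -0.06 (-0.26 to 0.14), so that neither could be told from 0 at this depth, and a 2-fold difference lies outside both counting intervals. The log2 ratio in U251 minus that in U87 was -1.09 for COL4A1 (-1.38 to -0.80) and -1.18 for COL4A2 (-1.38 to -0.97), exact conditional intervals of the 4 read numbers.

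The starts of both genes are shown here because they share 1 stretch of DNA between them. Any part of this stretch in their levels or Bru ratios was not tested. RefSeq promoter windows of GRCh38.p14, from 250 bases before to 50 bases after the start site, were found for 9 of the 10 genes. AGRN was not among them. The windows of COL4A1 (chr13:110307108-110307407, minus strand) and COL4A2 (chr13:110307034-110307333, plus strand) share 226 bases, and their start sites lie 127 bases apart. Each is written 5′ to 3′ on the strand of its gene, and capitals mark the 126 bases between the start sites, which read as the reverse complement of each other.
COL4A1: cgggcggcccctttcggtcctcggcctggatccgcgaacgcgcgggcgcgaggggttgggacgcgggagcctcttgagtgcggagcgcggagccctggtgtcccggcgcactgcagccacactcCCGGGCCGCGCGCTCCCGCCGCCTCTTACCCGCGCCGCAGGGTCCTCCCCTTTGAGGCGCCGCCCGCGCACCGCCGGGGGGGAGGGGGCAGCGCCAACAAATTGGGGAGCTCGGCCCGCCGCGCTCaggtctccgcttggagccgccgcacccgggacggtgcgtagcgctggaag
COL4A2: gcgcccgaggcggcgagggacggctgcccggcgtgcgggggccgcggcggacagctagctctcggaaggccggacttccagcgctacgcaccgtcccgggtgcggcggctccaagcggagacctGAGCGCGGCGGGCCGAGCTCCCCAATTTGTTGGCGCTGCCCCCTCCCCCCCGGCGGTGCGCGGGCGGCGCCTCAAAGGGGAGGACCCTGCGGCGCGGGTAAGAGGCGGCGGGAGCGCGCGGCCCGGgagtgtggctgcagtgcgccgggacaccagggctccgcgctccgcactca
Searched on both strands, the stretch in capitals holds 1 match to CCAAT, 1 match to GGGCGG and 0 matches to TATAAA, which occur in 34.6%, 45.0% and 11.5% of all 35116 promoter windows of that table. Those shares are over whole windows of 300 bases, longer than the stretch. The whole COL4A1 window holds 1, 2 and 0 matches in that order, and the COL4A2 window 1, 1 and 0. The stretch also holds 20 CG dinucleotides, and each whole window holds 45, more than 96.5% of all windows, whose median is 14. A high count is not particular to this pair. The windows of HSPG2 (44), LAMA5 and LAMC1 (41 each) and LAMB1 (35) were also above that median, and that of LAMA4 (8) was below it. A match describes the letters and is not a binding site. The start sites of this table lie within the gene spans of the files, which overlap each other at the head-to-head end without sharing exon bases.

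The 2 collagen IV chains had nearly the same ratio to each other with and without Bru in U251, where the level of each was lower with Bru. Per base of gene length, reads of COL4A1 were 0.532 times those of COL4A2 in U251 Control (0.514 to 0.551) and 0.512 times in U251 Bru (0.484 to 0.542). In U87 the ratio was 0.703 in Control (0.597 to 0.826) and 0.637 in Bru (0.534 to 0.757). From Control to Bru its log2 changed by -0.06 in U251 (-0.15 to 0.04) and by -0.14 in U87 (-0.49 to 0.20), and neither interval excluded 0. The files use the union of all annotated exons as the length, 14738 bases for COL4A1 and 19293 for COL4A2, which is longer than either mRNA. With the transcript that has the longest coding sequence, 6616 bases for COL4A1 and 6494 for COL4A2, the ratio in U251 Control became 0.399. Of the other collagen IV chains, COL4A5 had 17.9 FPKM in U251 without Bru and 9.73 FPKM with it, and 2.13 FPKM in U87 without Bru and 1.94 FPKM with it, and COL4A6 had 4.53, 3.05, 1.97 and 2.23 FPKM in the same order. The 6 chains summed to 66.4, 31.5, 6.64 and 6.48 FPKM. COL4A1 and COL4A2 held 22.5% and 42.3% of that sum in U251 Control, but 13.2% and 18.8% in U87 Control, where COL4A5 and COL4A6 held 32.0% and 29.6%. COL4A3 and COL4A4 stayed under 1 FPKM in all 4 libraries.

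**Figure D2:**
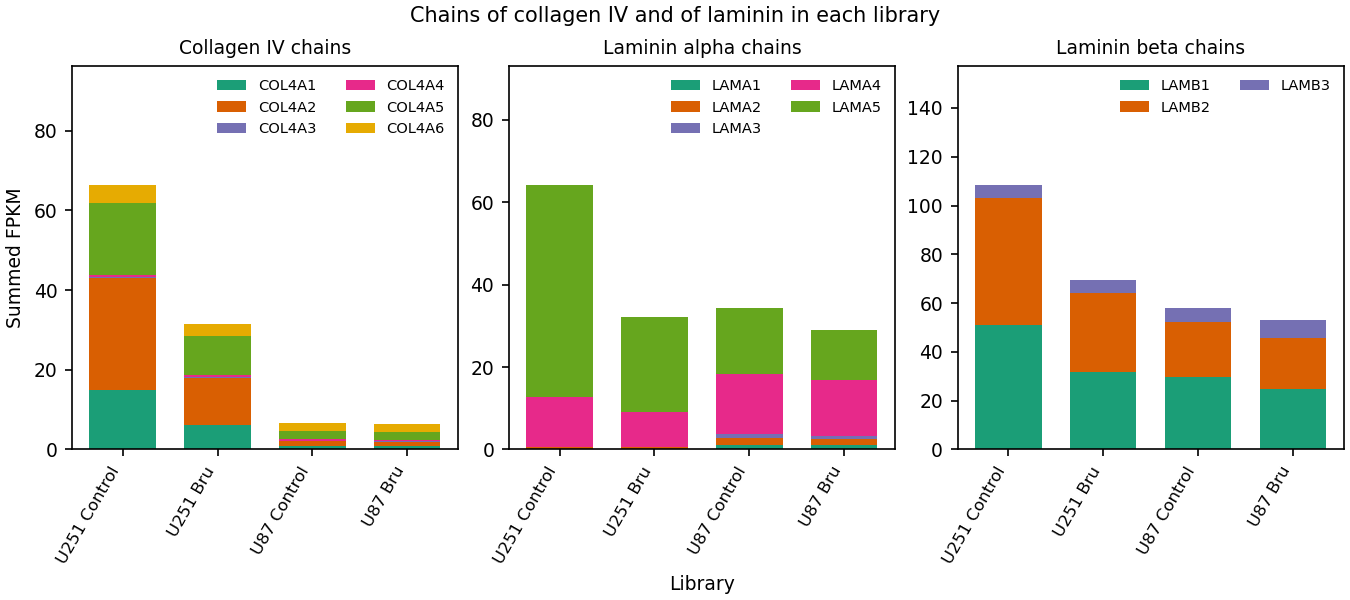
Summed FPKM (y axis, from 0) of the collagen IV chains and of the laminin alpha and beta chains in the 4 libraries, with each chain as a segment of the bar. The collagen IV bar is 66.4 FPKM high in U251 Control and 6.64 in U87 Control, the laminin alpha bar of U251 is mostly LAMA5, and the beta bars are mostly LAMB1 and LAMB2 in every library.

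The laminin chains, which form the first network of the sheet and carry its main sites for cell binding, were expressed in both lines. LAMA5 (ENSG00000130702, chromosome 20 from 62307955 to 62367312), the alpha chain of most adult basement membranes, had 51.4 FPKM (15411 reads) in U251 without Bru and 22.9 FPKM (6053 reads) with it, and 16.0 FPKM (4142 reads) in U87 without Bru and 12.2 FPKM (3026 reads) with it. LAMA4 (ENSG00000112769, chromosome 6 from 112108760 to 112254939), an alpha chain typical of vessel walls, had 12.2 FPKM (2965 reads) in U251 without Bru and 8.71 FPKM (1869 reads) with it, and 14.6 FPKM (3046 reads) in U87 without Bru and 13.7 FPKM (2762 reads) with it. U251 thus held far more LAMA5 than U87 without Bru, while LAMA4 was somewhat higher in U87. LAMA5 was 2.25-fold lower with Bru in U251 (2.18 to 2.32) and 1.32-fold lower in U87 (1.26 to 1.38). LAMA4 was 1.40-fold lower in U251 (1.32 to 1.49) and 1.06-fold lower in U87 (1.01 to 1.12), where its log2 ratio of -0.09 was close to the -0.04 of the median gene. Of the 4 laminin chains, LAMA5 had the largest difference in both lines, and its log2 ratio of -0.40 in U87 was the lowest there among the 8 genes that passed the filter.

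Reads of LAMA4 per base were 0.238 times those of LAMA5 in U251 Control (0.228 to 0.247) and 0.381 times in U251 Bru (0.362 to 0.402), a log2 change of 0.68 (0.59 to 0.78). In U87 the ratio went from 0.908 (0.866 to 0.952) to 1.13 (1.07 to 1.19), a log2 change of 0.31 (0.21 to 0.41). LAMA4 thus took a larger share of the alpha chains with Bru in both lines. Its share of the summed FPKM of LAMA1 to LAMA5 was 19.0% in U251 without Bru and 27.2% with it, and 42.3% in U87 without Bru and 47.2% with it, and LAMA5 had 80.1%, 71.3%, 46.6% and 41.9%. Which of the pair is higher in U87 Control depends on the length used, and with the longest coding transcript LAMA4 was at 1.28 times LAMA5. The changes from Control to Bru do not depend on length. The exons of LAMA5 share 244 bases with ADRM1, a proteasome receptor gene on the other strand with 2236, 2048, 3283 and 2966 reads in the 4 libraries.

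LAMB1 and LAMC1 encode the beta and gamma chains that pair with either alpha chain. LAMB1 (ENSG00000091136, chromosome 7 from 107923799 to 108003255) had 51.1 FPKM (8719 reads) in U251 without Bru and 31.9 FPKM (4807 reads) with it, and 29.5 FPKM (4345 reads) in U87 without Bru and 24.7 FPKM (3501 reads) with it. LAMC1 (ENSG00000135862, chromosome 1 from 183023460 to 183145592) had 62.9 FPKM (11084 reads) in U251 without Bru and 36.2 FPKM (5633 reads) with it, and 24.7 FPKM (3745 reads) in U87 without Bru and 22.4 FPKM (3277 reads) with it. Each was lower with Bru in both lines and by less than 2-fold. LAMB1 was 1.60-fold lower in U251 (1.55 to 1.66) and 1.20-fold lower in U87 (1.14 to 1.25). LAMC1 was 1.74-fold lower in U251 (1.68 to 1.80) and 1.10-fold lower in U87 (1.05 to 1.15). The log2 ratio in U251 minus that in U87 was -0.42 for LAMB1 (-0.51 to -0.34) and -0.66 for LAMC1 (-0.74 to -0.58).

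The ratio of these chains to each other differed little with Bru, with reads of LAMB1 per base at 0.812 times those of LAMC1 in U251 without Bru and 0.881 with it, and 1.20 in U87 without Bru and 1.10 with it. The log2 of the ratio changed by 0.12 with Bru in U251 (0.05 to 0.19) and by -0.12 in U87 (-0.21 to -0.02), so that the small changes had opposite signs. The ratio itself depends on the length used, and with the longest coding transcript LAMB1 was at 1.08 times LAMC1 in U251 Control, 1.17 times in U251 Bru, 1.59 times in U87 Control and 1.46 times in U87 Bru. LAMB2, the other abundant beta chain, was close to LAMB1 with 52.0 FPKM in U251 without Bru and 32.1 FPKM with it, and 22.7 FPKM in U87 without Bru and 21.1 FPKM with it. DLD, on the other strand, shares 70 exon bases with LAMB1 and had between 2705 and 3062 reads. The antisense gene LAMC1-AS1, which shares no exon bases with LAMC1, had between 14 and 45 reads. AC005046.1 (LAMB1), LAMA5-AS1 (LAMA5), and Z99289.1 and AL365214.2 (LAMA4), other genes that overlap laminin genes, had at most 31 reads in any library.

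**Figure D3:**
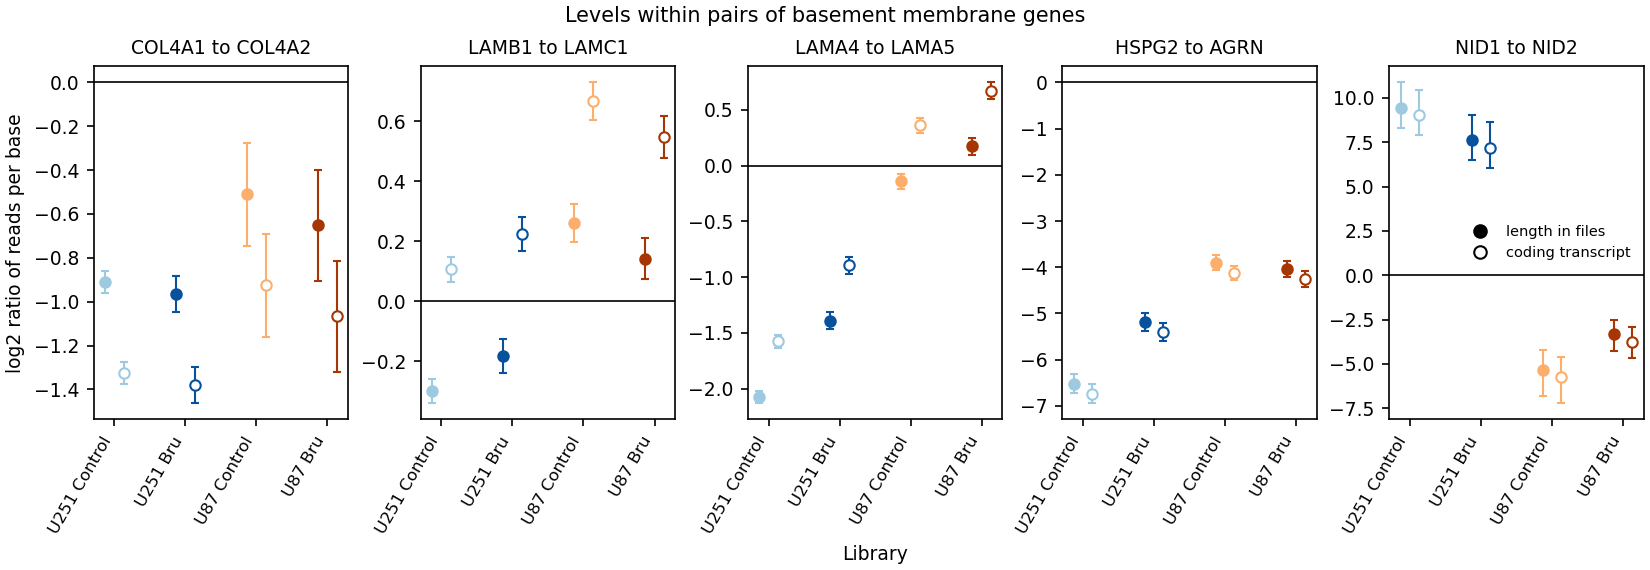
Log2 ratio of reads per base between COL4A1 and COL4A2, LAMB1 and LAMC1, LAMA4 and LAMA5, HSPG2 and AGRN, and NID1 and NID2 in each library (x axis), with 95% exact counting intervals, filled points for the gene length in the files and open points for the longest coding transcript. The y axes differ between panels. The COL4A1 to COL4A2 points of a line overlap between Control and Bru, LAMA4 to LAMA5 points lie higher in Bru, and the NID1 to NID2 points lie above 0 in U251 and below 0 in U87.

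The nidogens, which link the laminin network to the collagen IV network, had opposite levels in the lines. NID1 (ENSG00000116962, chromosome 1 from 235975830 to 236065162) had 31.0 FPKM (3812 reads) in U251 without Bru and 9.92 FPKM (1078 reads) with it, and 0.0566 FPKM (6 reads) in U87 without Bru and 0.127 FPKM (13 reads) with it. NID2 (ENSG00000087303, chromosome 14 from 52004803 to 52069228) had 0.0448 FPKM (6 reads) in U251 without Bru and 0.0506 FPKM (6 reads) with it, and 2.31 FPKM (267 reads) in U87 without Bru and 1.28 FPKM (142 reads) with it. NID1 was the nidogen of U251 and NID2 that of U87, with few reads of the other in each line. Without Bru, NID1 was 547-fold higher in U251 than in U87, a log2 ratio of U87 to U251 of -9.10 without a pseudocount (-10.54 to -7.97), and NID2 was 51.7-fold higher in U87 than in U251 (23.4 to 142). A 2-fold difference between the untreated lines in either direction was common over all genes, at 16.0% lower and 14.5% higher in U87.

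In each line the nidogen that was expressed was lower with Bru. NID1 was 3.12-fold lower in U251 Bru than in U251 Control (2.92 to 3.35), the lowest ratio of the 10 genes, and NID2 was 1.81-fold lower in U87 Bru than in U87 Control (1.47 to 2.24), the lowest of the 10 in that line. The nidogen with few reads gave wide intervals, from -0.33 to 2.85 for the log2 ratio of NID1 in U87 and from -1.72 to 2.08 for NID2 in U251, and no difference was detectable there. NID2 did not pass the filter on mean FPKM, and NID1 had few reads in U87. The exons of NID2 share 1915 bases with RTRAF, an RNA-processing gene on the other strand with between 1270 and 2137 reads, and how reads in shared bases were assigned is not given in the sources used here. The promoter windows of both nidogens are shown with CCAAT on either strand in capitals. Any part of these sequences in the levels of the genes was not tested. NID1 is at chr1:236065041-236065340 and NID2 at chr14:52069010-52069309 of GRCh38.p14, both on the minus strand.
NID1: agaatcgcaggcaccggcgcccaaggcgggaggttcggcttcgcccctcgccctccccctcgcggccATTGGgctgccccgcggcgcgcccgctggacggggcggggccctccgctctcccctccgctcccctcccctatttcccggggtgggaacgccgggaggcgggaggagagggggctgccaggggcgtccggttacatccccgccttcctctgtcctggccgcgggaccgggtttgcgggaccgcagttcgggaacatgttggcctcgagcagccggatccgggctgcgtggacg
NID2: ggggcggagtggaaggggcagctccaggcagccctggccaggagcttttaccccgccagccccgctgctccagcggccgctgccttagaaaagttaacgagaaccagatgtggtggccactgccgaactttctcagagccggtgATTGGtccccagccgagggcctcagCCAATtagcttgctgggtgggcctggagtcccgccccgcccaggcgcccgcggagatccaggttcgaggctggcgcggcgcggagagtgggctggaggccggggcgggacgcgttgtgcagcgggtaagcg
The NID1 window holds 36 CG dinucleotides and 1 match to CCAAT, and the NID2 window holds 25 CG dinucleotides and 2 matches to CCAAT. The count of CG dinucleotides is above that of 87.3% of all windows for NID1 and of 68.0% for NID2.

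**Figure D4:**
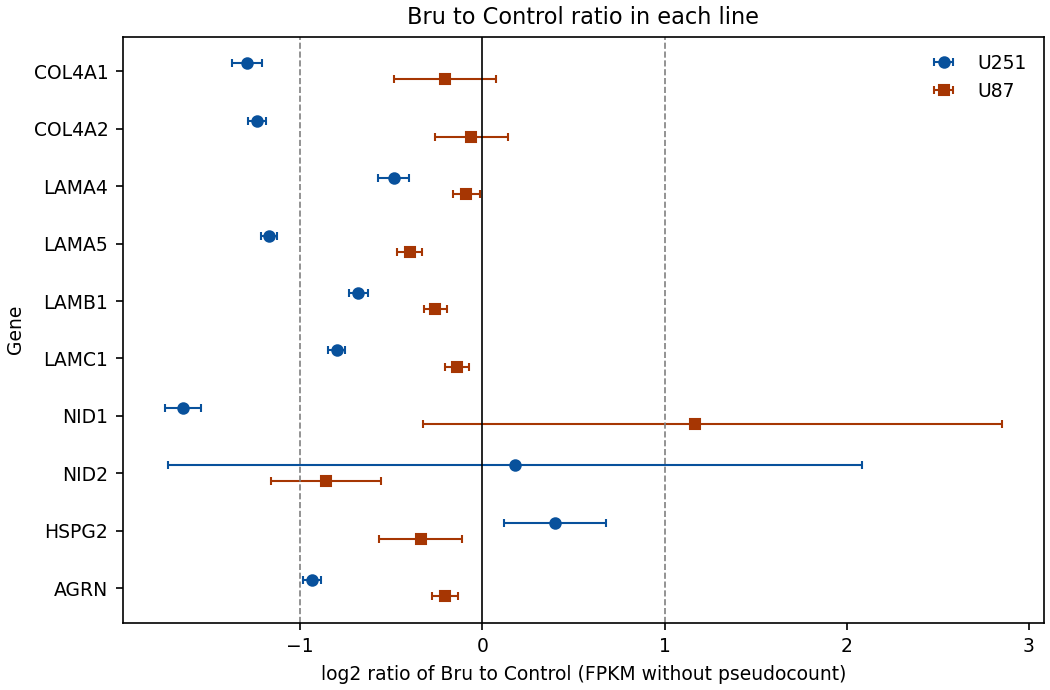
Log2 ratio of Bru to Control without a pseudocount (x axis) for each of the 10 genes in U251 (circles) and U87 (squares), with 95% exact counting intervals and dashed lines at a 2-fold difference. In U251 8 genes lie left of 0 with short intervals, the U87 points of these genes lie nearer to 0, with NID1 on the other side of it, and HSPG2 lies right of 0 in U251 and left of it in U87.

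The proteoglycans differed from each other in level and in direction. AGRN (ENSG00000188157, chromosome 1 from 1020123 to 1056118), known for clustering acetylcholine receptors at the neuromuscular junction and present in the vascular basement membrane of the brain, had 48.2 FPKM (10882 reads) in U251 without Bru and 25.2 FPKM (5033 reads) with it, and 16.9 FPKM (3283 reads) in U87 without Bru and 14.7 FPKM (2744 reads) with it. HSPG2 (ENSG00000142798, chromosome 1 from 21822245 to 21937297), whose product perlecan is the main heparan sulfate proteoglycan of most basement membranes, had 0.527 FPKM (200 reads) in U251 without Bru and 0.694 FPKM (233 reads) with it, and 1.13 FPKM (370 reads) in U87 without Bru and 0.895 FPKM (282 reads) with it. AGRN was thus far above HSPG2 in every library. AGRN was 1.91-fold lower with Bru in U251 (1.85 to 1.98) and 1.15-fold lower in U87 (1.10 to 1.21). HSPG2 was 1.32-fold higher with Bru in U251 (1.09 to 1.60) and 1.26-fold lower in U87 (1.08 to 1.48), and it was the only gene of the 10 whose counting interval lay above 0 in U251, beside 30.9% of all genes. Reads of HSPG2 per base were 0.0109 times those of AGRN in U251 without Bru and 0.0275 times with it, and 0.0670 times in U87 without Bru and 0.0611 times with it. The log2 of this ratio changed by 1.33 in U251 (1.05 to 1.62) and by -0.13 in U87 (-0.37 to 0.11). LDLRAD2, on the other strand, shares 2121 exon bases with HSPG2 and had 0 reads in each library.

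The untreated lines differed in most of these genes, and the Bru libraries less so. Between the Control libraries, 6 of the 10 genes were past 2-fold lower in U87 (NID1, COL4A2, COL4A1, LAMA5, AGRN and LAMC1) and NID2 was past 2-fold higher, beside 16.0% and 14.5% of all genes, with LAMB1, LAMA4 and HSPG2 within 2-fold on the FPKM + 0.1 scale. Without the pseudocount HSPG2 was 2.15-fold higher in U87 (1.80 to 2.56). Between the Bru libraries, 3 genes were past 2-fold lower in U87 (NID1, COL4A2 and COL4A1) and NID2 was past 2-fold higher, beside 15.0% and 14.3% of all genes. The gap narrowed for COL4A1 from 17.1-fold (14.9 to 19.5) without Bru to 8.01-fold (6.91 to 9.34) with it, and for COL4A2 from 22.5-fold (20.5 to 24.8) to 9.96-fold (8.99 to 11.1). For LAMA5 it narrowed from 3.21-fold (3.10 to 3.32) to 1.88-fold (1.80 to 1.96), and for AGRN from 2.86-fold (2.75 to 2.97) to 1.72-fold (1.64 to 1.81). For LAMA4, which was higher in U87, the gap widened instead, from 1.19-fold (1.13 to 1.25) to 1.57-fold (1.48 to 1.67). The same 10 genes summed to 300.3 FPKM in U251 without Bru and 153 FPKM with it, and 107 FPKM in U87 without Bru and 91.9 FPKM with it. These comparisons share the Control libraries with the Bru ratios and are no further evidence for them.

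The difference between the lines in the Bru ratio was itself outside counting error for 9 of the 10 genes. A difference in Bru dose between the lines cannot be told apart here from a difference in their response. The counting interval of the log2 ratio in U251 minus that in U87 lay below 0 for 8 genes, beside 24.1% of all genes, and above 0 for HSPG2 (0.74, from 0.37 to 1.10), beside 25.7%. For NID2 the difference could not be told from 0 (1.04, from -0.90 to 2.96). It was -0.77 for LAMA5 (-0.85 to -0.69), -0.73 for AGRN (-0.82 to -0.64) and -0.40 for LAMA4 (-0.51 to -0.29), and for NID1 it was -2.81 (-4.50 to -1.31). On the FPKM + 0.1 scale it was past 2-fold for NID1, COL4A2 and COL4A1, 3 of the 10 genes, beside 5.11% of all genes past 2-fold in that direction and 3.37% in the other.

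Other genes of the basement membrane were read from 5 lists with 78 genes, of which 58 passed the filter. In U251, 21 of the 58 were past 2-fold lower with Bru and 0 past it higher, with a median log2 ratio of -0.75. Some of the 58 passed only through 1 of the lines and had few or no reads in the other, so counts and medians are given over the genes with a mean of at least 1 FPKM in the line itself where these differ. By that measure 22 of 56 were past 2-fold lower in U251, with a median of -0.81, beside 5.77% of all 12651 such genes, and 1 of 48 in U87, with a median of -0.28, beside 1.34% of 12591, and 0 were past 2-fold higher in either line. Other laminin and collagen IV chains gave 0 of 5 past 2-fold in either line, with medians of -0.56 in U251 and -0.11 in U87, or -0.63 over 4 and 0.01 over 6 genes with 1 FPKM in the line itself. LAMB2 had log2 ratios of -0.69 and -0.11, COL4A5 of -0.88 and -0.13, and LAMB3, a chain of epithelial laminin, of 0.10 and 0.27. Other components of the sheet gave 8 of 11 past 2-fold lower in U251. With 1 FPKM in the line itself, 9 of 11 were past 2-fold lower in U251, FREM2 among them (-2.13), with a median of -1.48, and 1 of 5 in U87, with a median of -0.36.

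TINAGL1, PXDN, NTN1 and FBLN1 had few or no reads in U87, and SMOC1, a calcium-binding matrix protein, had 2 and 0 reads in U251 but 708 in U87 Control and 531 in U87 Bru. TINAGL1, a laminin-binding matrix protein, had 1745 reads in U251 Control, 271 in U251 Bru and 0 in both U87 libraries, and its log2 ratio in U251 was -2.47 (-2.70 to -2.32 without a pseudocount). PXDN, the peroxidase that crosslinks collagen IV, had 26.0 FPKM in U251 without Bru and 10.3 FPKM with it, and 0.00492 FPKM in U87 without Bru and 0.0306 FPKM with it. NTN1, a laminin-related guidance protein, had 8.31 FPKM in U251 Control and 2.47 in U251 Bru, and FBLN1, a protein that binds nidogen and laminin, had 14.7 and 5.09, and each had at most 5 reads in either U87 library. A U87 ratio of such genes is set by the pseudocount and is not a measurement of a change. HMCN1 and NTN4 had log2 ratios of -1.48 and -1.05 in U251 and of -0.42 and 0.13 in U87. TGFBI was at -1.09 in U251 and -0.15 in U87. SPARC, a collagen IV-binding protein, was the 1 gene of the list past 2-fold in U87, where it had 71.1 FPKM in Control and 35.0 in Bru. In U251 SPARC had 411 FPKM in Control and 135 in Bru, and its log2 ratio was -1.60 there and -1.02 in U87.

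Among receptors for the basement membrane, 6 of 14 were past 2-fold lower in U251, beside 5.77% of all genes with 1 FPKM there. Of 13 with 1 FPKM in U87 itself, 0 were past it, beside 1.34% of all such genes. The medians were -0.88 in U251 and -0.29 in U87. ITGB1, the beta subunit shared by most laminin and collagen receptors, had 160 FPKM in U251 without Bru and 61.1 FPKM with it, and 127 FPKM in U87 without Bru and 85.9 FPKM with it. Its partner ITGA6 had a log2 ratio of -1.30 in U251 and of -0.42 in U87, and ITGA3, the most abundant alpha subunit of the list, of -0.74 and -0.53. ITGB4, which pairs with ITGA6, had 98.2 FPKM in U251 without Bru and 45.1 FPKM with it, and 0.270 FPKM in U87 without Bru and 0.340 FPKM with it, so that it was another gene with a wide gap between the lines. GPC1 (-1.33 and -0.68), DDR1 (-1.07 and -0.29) and BCAM (-1.04 and -0.19) were the other genes past 2-fold in U251, and SDC1 had log2 ratios of -0.88 and -0.30.

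Genes for the folding and crosslinking of collagen gave 4 of 13 past 2-fold lower in U251, beside 5.77% of all genes with 1 FPKM there. Of 12 with 1 FPKM in U87 itself, 0 were past it, beside 1.34% of all such genes. The medians were -0.73 in U251 and -0.36 in U87. The 4 were P4HB (-1.29 in U251 and -0.58 in U87), a subunit of prolyl 4-hydroxylase, LOXL2 (-1.28 and -0.57), a lysyl oxidase that crosslinks collagen IV, PLOD1 (-1.27 and -0.36), a lysyl hydroxylase, and COLGALT1 (-1.17 and -0.35), a collagen galactosyltransferase. MIA3, needed to export bulky collagens from the endoplasmic reticulum, had a log2 ratio of 0.27 in U251. It was the only gene of the list whose counting interval lay above 0 there, beside 30.9% of all genes. Of the enzymes that build or trim heparan sulfate chains, which perlecan and agrin carry, 14 had 1 FPKM in U251 itself and 12 in U87. Past 2-fold lower were 3 of the 14 in U251 and 0 of the 12 in U87, beside the same shares of all genes. The medians were -0.57 and -0.33. The 3 were HS6ST1 (-1.21 in U251), EXTL3 (-1.13) and HPSE (-1.06), while B3GAT3 (-0.31), B3GALT6 (-0.44) and EXT2 (-0.70), the 3 most abundant genes of the list, stayed within 2-fold.

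**Figure D5:**
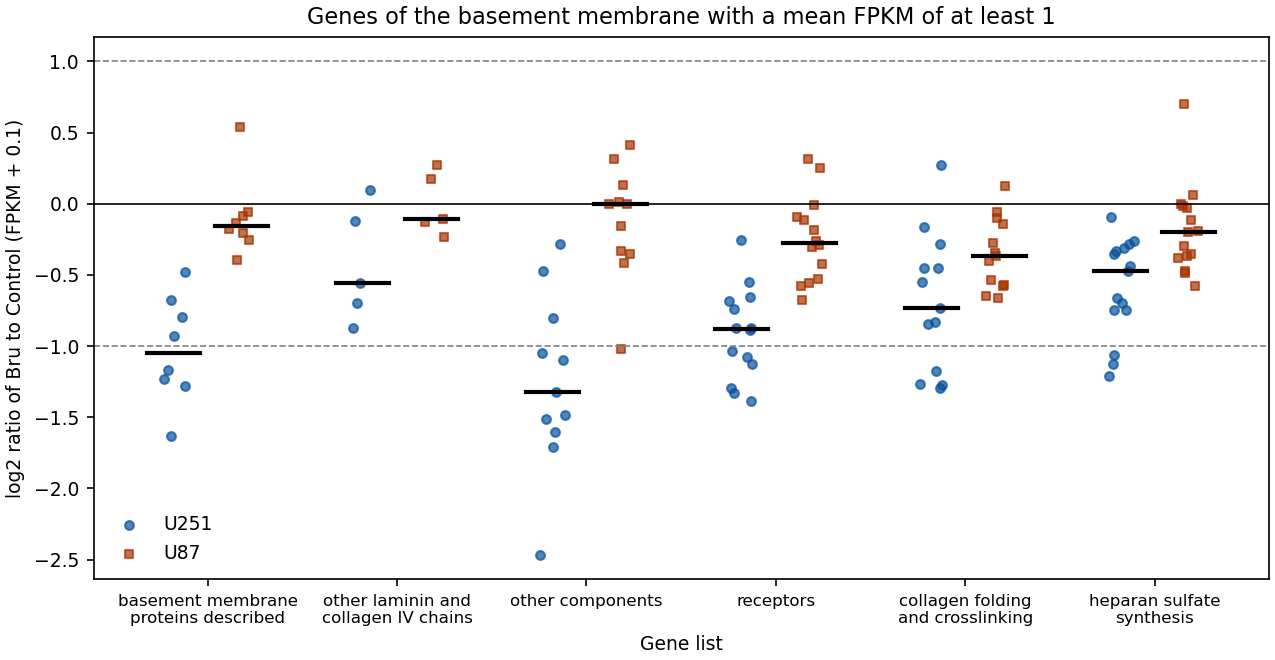
Log2 of Bru over Control, from FPKM + 0.1 (y axis), of every gene with a mean of at least 1 FPKM in the basement membrane genes described here and in 5 further lists (x axis), with U251 as circles, U87 as squares, black bars at the medians and dashed lines at a 2-fold difference. The U251 medians lie between -1.32 and -0.47 and the U87 medians between -0.36 and 0. U87 points at 0 include genes without reads in that line.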

How the data were processed

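RNA came from U251 and U87 cells with and without 48 h of Bru, 1 library per condition and 4 in all, and the labels do not say whether the cultures were grown separately. Sequencing used libraries made with a kit that does not mark strand. The authors deposited FPKM per gene with gene lengths in bases. The submitters' processing notes name HISAT2 2.0.5, StringTie 1.3.3b, featureCounts 1.5.0-p3 and DESeq2 1.16.1 without roles, and the build hg18, but the start and end of all 58735 genes in the files equal those of GENCODE 29 on GRCh38, and the lengths of all 10 genes equal the union of their exons there. These coordinates are used.

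FPKM multiplied by length was a whole multiple of 1 step, within 0.001 reads, for 100% of the values above 0, which gave the reads per gene and the library sizes used by the authors. Depth was between 17083896 and 21453561 reads on genes, and 3 reads on a gene of 1 kilobase equal 0.143 to 0.172 FPKM. Ratios used FPKM + 0.1, and counts over all genes used those with a mean of at least 1 FPKM. Intervals at 95% are exact Clopper-Pearson or exact conditional odds ratio intervals (scipy 1.17.1, numpy 2.4.6, pandas 2.3.3, Python 3.11.15). Reads carry no molecular identifiers, so only counting error is covered. The scripts were tested on simulated data.

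The 10 genes and the other lists were chosen with earlier results of these data known. From each other list, genes past 2-fold in either line and the 3 most abundant were named, along with overlapping genes of at least 10 reads. There were 24 overlapping genes, of which 11 share exon bases. LDLRAD2, COL4A3, COL4A4, COL4A6, SMOC1, FREM2 and MIA3 were named after their values were seen. Some list genes are not reported here. Alternatives were other pseudocounts, scalings, filters and, chosen after seeing the data, transcript length and a filter of 1 FPKM within the line.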

Additional observations from a re-analysis of the deposited data

Results flagged for a closer look

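HSPG2, which encodes perlecan, was the 1 gene of the 10 whose Bru ratio had opposite signs in the lines with both counting intervals clear of 0. Its log2 ratio on FPKM + 0.1 was 0.34 in U251 and -0.31 in U87. Over all genes, the interval lay above 0 for 30.9% in U251 and below 0 for 28.0% in U87. The share of all genes with opposite signs by this rule was not counted, so whether HSPG2 is unusual in this is not known. Each line has 1 library per condition, so the difference between the lines was not tested against replicates, and HSPG2 was below the filter on mean FPKM.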

How the results depend on the processing

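Each condition has 1 library, so no replicate could be left out. For the same reason no paired analysis was possible. Over pseudocounts of 1 and 0.01 and 4 other scalings, the log2 ratios of the 10 genes kept their sign in 60 of 60 values in U251 and in 60 of 60 in U87, as did the differences between the lines. They left their counting intervals in 15 of 60 values in U251, 1 of 60 in U87 and 1 of 60 differences. The same 4 genes were past 2-fold in U251 under each of these settings. In U87 the count went from 0 to 1 with a pseudocount of 0.01, through NID1 with its 6 and 13 reads. The U251 median of -1.05 became -0.96 with equal 75th percentiles, -0.97 with reads outside the mitochondrial genome and -0.86 without a filter, which adds NID2 and HSPG2. The scalings moved the median of all genes by at most 0.07 on the log2 scale. With the longest coding transcript as the length, log2 ratios between chains changed sign for LAMB1 to LAMC1 in U251 Control (from -0.30 to 0.11) and in U251 Bru (from -0.18 to 0.22) and for LAMA4 to LAMA5 in U87 Control (from -0.14 to 0.36). Depth limits NID1 in U87 and NID2 in U251.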

Other observations

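Some laminin chains stayed below the filter on mean FPKM in these libraries. LAMA3, an alpha chain of epithelial laminin, had 4 reads in U251 without Bru and 1 read with it, and 282 reads in U87 without Bru and 153 reads with it. Its log2 ratio in U87 was -0.74 on FPKM + 0.1. LAMA1, the alpha chain of the early embryo, had 278 reads in U87 without Bru and 293 with it but at most 2 in either U251 library. These genes were named after their values were seen.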
